A study of Mus musculus with 14 samples.

Results

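Wnt ligands are secreted glycoproteins that carry signals between the surface ectoderm of the limb bud and the mesenchyme beneath it. The transcripts of 10 of them, *Wnt3*, *Wnt4*, *Wnt5a*, *Wnt5b*, *Wnt6*, *Wnt7a*, *Wnt7b*, *Wnt10a*, *Wnt10b* and *Wnt11*, were followed in mouse forelimb buds with and without mesenchymal *Smad4*. They were chosen by gene symbol among the 23284 symbols counted, with earlier results of these data known. All 10 passed the filter of 1 CPM in 3 or more samples, where CPM is the reads of a gene scaled to library size. In all, 12393 genes passed. SMAD4 is the nuclear partner shared by the BMP and TGFβ branches of SMAD signaling. Poly(A) RNA of the forelimb buds of single NMRI embryos was sequenced in 4 groups. Embryos of 30 somites (E10.0) comprised 3 wild types and 4 Smad4Δ/Δc mutants, and those of 35 somites (E10.5) likewise comprised 3 and 4. Wild-type embryos were Smad4+/+ littermates, and embryos of all 4 groups carried 1 copy of the PrxCre transgene. Mutants carried a constitutive null allele and a conditional allele that CRE removes in the limb mesenchyme, so that their ectoderm kept 1 intact *Smad4* allele while that of wild types kept both. The 4 groups answer which ligand genes differ between genotypes at each stage and between stages within each genotype.

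A Wnt ligand is acylated on a conserved serine by Porcupine, escorted to the cell surface by Wntless, and bound there by Frizzled receptors with LRP co-receptors to stabilize β-catenin, or with ROR and RYK receptors to direct cell polarity and movement. In the early limb bud, *Wnt3* in the ectoderm is needed for the apical ectodermal ridge and its *Fgf8*, *Wnt7a* in the dorsal ectoderm turns on *Lmx1b* in the dorsal mesenchyme, and *Wnt5a* in the distal mesenchyme guides outgrowth. *Wnt4*, *Wnt6*, *Wnt7b*, *Wnt10a* and *Wnt10b* are also known mainly from the ectoderm or its ridge. *Wnt5a*, *Wnt5b* and *Wnt11* are the ligands usually placed outside the β-catenin route.

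The sequence around the acylated serine is shown because it is what the 10 ligands share and what the extracellular enzyme Notum, whose transcript is described further on, acts on. Each line holds 30 coding bases of the mm9 genome (NCBIM37, GENCODE vM1 transcripts), 5′ to 3′ on the coding strand, with the serine codon in capitals.
*Wnt3* (chr11:103673628-103673657, + strand): tgccacgggttgTCCggcagctgcgaggtg
*Wnt4* (chr4:136852260-136852289, + strand): tgtcacggggtgTCGggctcctgcgaggta
*Wnt6* (chr1:74830746-74830775, + strand): tgccatgggcttTCGggttcctgcgctctg
*Wnt7a* (chr6:91316260-91316289, − strand): tgccatggtgtgTCAggctcctgtaccact
*Wnt7b* (chr15:85368236-85368265, − strand): tgtcacggtgtgTCAggctcctgtaccacc
*Wnt10a* (chr1:74849730-74849759, + strand): tgccacggcaccTCAggcagctgccagctc
*Wnt10b* (chr15:98603303-98603332, − strand): tgccatggaacgTCAggcagctgccaattc
*Wnt5a* (chr14:29335701-29335730, + strand): tgtcatggagtgTCTggctcctgtagcctc
*Wnt5b* (chr6:119383812-119383841, − strand): tgtcacggagtcTCCgggtcctgcagcctc
*Wnt11* (chr7:105998770-105998799, + strand): tgccatggggtgTCTggctcctgctccatc
Each window lay within 1 coding exon. *Wnt7a* and *Wnt7b* were the most alike, with 27 of 30 bases in common, and *Wnt7a* and *Wnt10a* the least, with 16. The paralogs *Wnt5a* and *Wnt5b*, like *Wnt10a* and *Wnt10b*, shared 25 bases. Only reads that mapped to 1 place had been counted, so that reads from stretches identical between paralogs were lost from both genes, not split between them.

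*Wnt6* (chr1:74818466-74831893) and *Wnt10a* (chr1:74838090-74850753) were neighbors on the same strand, 6197 bases apart. *Wnt10b* (chr15:98602184-98608581, − strand) lay 11707 bases from *Wnt1*, and *Wnt3* (chr11:103635464-103679271) 24329 bases from *Wnt9b*. *Wnt5a* (chr14:29317936-29340633), *Wnt7b* (chr15:85365869-85412251, − strand) and *Wnt11* (chr7:105983622-106003705) each shared exon sequence with 1 other annotated gene, and the counting disregarded strand.

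All 14 libraries were deep, with 34066930 to 61691258 reads on genes. *Smad4* stood at 161 ± 8.43 CPM in the wild types of E10.0 and at 39.8 ± 4.19 CPM in the mutants, and at 166 ± 2.27 against 37.0 ± 3.43 CPM at the later stage, with no overlap between genotypes (mean ± SD throughout, n=3 wild types and n=4 mutants). Libraries 4 and 5 of the mutants stood apart at both stages: the ribosomal transcript *Rn45s* took 1.72% to 8.05% of their reads and 0.151% to 0.478% in the other 10. As no wild type belongs to that set, genotype and library set cannot be told apart for these 4 mutants, and the main results are also given without them. The 6 limb mesenchyme markers summed to 1374 to 1908 CPM and the 13 surface ectoderm markers to 272 to 487 CPM over all samples, with no marker of either list at 0 in any group. The 4 neural tube markers summed to at most 0.708 CPM. Summed mesothelium markers reached 8.58 to 18.9 CPM in mutants at E10.0 and stayed at 1.498 to 6.76 CPM in the other groups. Because whole buds were used, fewer cells of a type and less RNA per cell cannot be told apart. P-values of the main tests rest on a spread between embryos modelled over all 14 libraries, not on the groups compared alone. The SE printed beside them came from the groups compared alone.

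*Wnt5a* was by far the most abundant ligand transcript and *Wnt10a* the scarcest. On the scale of CPM per kb of exon, which allows genes to be compared, the level of *Wnt5a* was 16.1 ± 0.996 in wild type and 15.9 ± 2.31 in mutants at E10.0, and at the later stage 19.5 ± 0.834 and 21.4 ± 2.62. It stood above every other ligand in each group, with no overlap with the ligand of the next rank. *Wnt6* held the next rank in wild type at E10.0 (10.12 ± 1.83), followed by *Wnt5b* (7.67 ± 0.0248) and *Wnt7a* (6.10 ± 1.16). The embryos of these neighbors in rank did not overlap either. Those of *Wnt5b* lay closer together than counting noise alone would place them on average. *Wnt4* (3.14 ± 0.337), *Wnt3* (2.99 ± 0.389) and *Wnt7b* (2.50 ± 0.240) followed within their spread, *Wnt11* came below them (1.73 ± 0.213), and *Wnt10b* (0.578 ± 0.133) and *Wnt10a* (0.469 ± 0.0248) were last and overlapped. In CPM, *Wnt10a* lay between 0.628 and 1.33 over the 14 samples, which rested on 23 to 67 reads, whereas *Wnt5a* lay between 111 and 186 CPM.

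**Figure D1:**
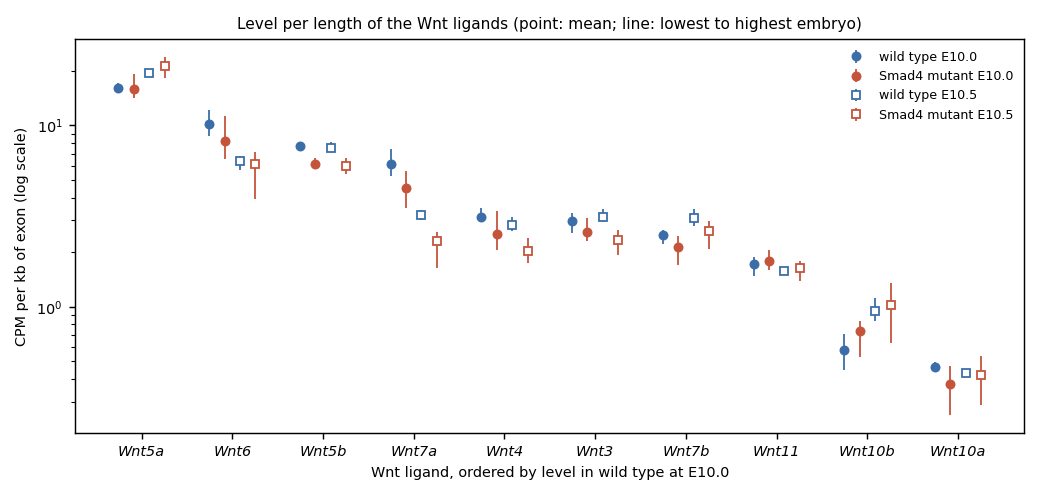
Level of each Wnt ligand in CPM per kb of exon (log scale) by group, ordered by wild type at E10.0, with the mean as a point and the lowest to highest embryo as a line. *Wnt5a* lay above all others in each group, *Wnt7a* stood at 6.10 in wild type at E10.0 and at 2.32 in mutants at E10.5, and *Wnt10b* and *Wnt10a* were lowest.

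The order shifted with stage and genotype. In wild type at E10.5, *Wnt5b* (7.53 ± 0.510) stood above *Wnt6* (6.35 ± 0.564), and *Wnt7a*, *Wnt3*, *Wnt7b* and *Wnt4* lay together between 3.22 and 2.83 with neighbors overlapping. In mutants *Wnt6* and *Wnt5b* overlapped at both stages. Of the summed level per kb of the 10 ligands, *Wnt5a* made up 31.3% in wild type and 35.4% in mutants at E10.0, then 40.1% and 46.7% at the later stage. The 7 ligands known from the ectoderm made up 50.4% in wild type at E10.0, 47.0% in mutants at E10.0, 41.1% in wild type at E10.5 and 36.8% in mutants at E10.5.

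**Figure D2:**
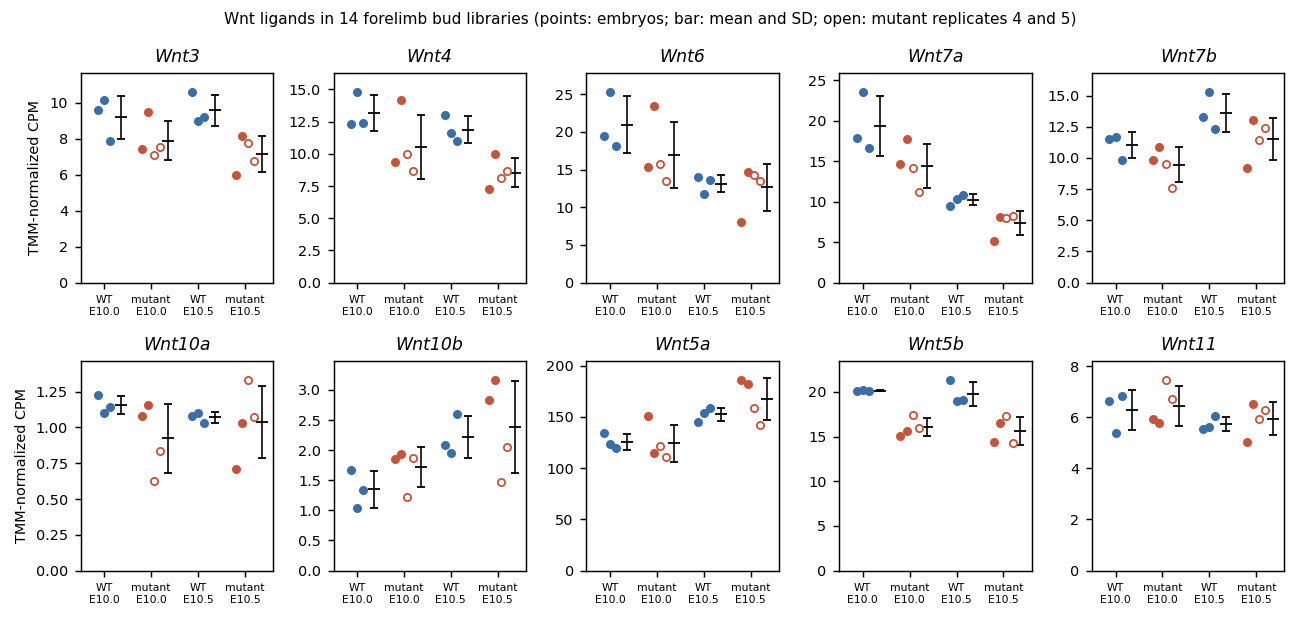
TMM-normalized CPM of each Wnt ligand in every embryo (points), with the mean and SD of each group (bars), and mutant libraries 4 and 5 as open circles. The mutants lay below all wild types of their stage for *Wnt5b* at both stages and for *Wnt3*, *Wnt4* and *Wnt7a* at E10.5, and *Wnt7a* was lower at E10.5 than at E10.0 in both genotypes.

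*Wnt5b*, a close relative of *Wnt5a* that also acts outside the β-catenin route, was the ligand with the clearest difference between genotypes. At E10.0 it stood at 20.1, 20.2 and 20.1 CPM in the wild types 1, 2 and 3 and at 15.1, 15.6, 17.5 and 15.9 CPM in the mutants 1, 3, 4 and 5. At E10.5 the wild types 1, 2 and 3 held 21.3, 18.9 and 19.1 CPM and the mutants 1, 2, 4 and 5 held 14.4, 16.5, 17.3 and 14.3 CPM. Every mutant was below every wild type of its stage. The 3 wild types of E10.0 (SD 0.0651 CPM, on 911 to 1102 reads) lay closer together than counting noise alone would place them on average. The SE for that stage is therefore likely too small. The log2 fold change, mutant over wild type, was −0.33 at E10.0 (SE 0.0442, exact test, adjusted p = 0.0501) and −0.34 at E10.5 (SE 0.0893, adjusted p = 0.0549), and *Wnt5b* fell at both stages by the criteria of a false discovery rate (FDR) of at most 0.1 and a fold of at least 1.2. It was the only one of the 10 ligands called at E10.0, where 6.61% of all genes tested were called (819 genes, which became 256 without wild type 3 and 499 without mutant 5), and its genotypes did not overlap, as held for 17.8% of all genes. Without mutants 4 and 5 the log2 fold was −0.39 at E10.0 (adjusted p = 0.0162) and −0.35 at E10.5 (adjusted p = 0.0762). The call at E10.0 was lost without mutant 1, 3 or 5 or without any 1 of the 3 wild types, with adjusted p from 0.102 to 0.235 and log2 folds from −0.29 to −0.33. The call at E10.5 was lost without mutant 1 or 5 or any 1 wild type, with adjusted p from 0.120 to 0.382 and log2 folds from −0.28 to −0.37, and with only the groups of E10.5 fitted (−0.33, adjusted p = 0.105).

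The other ligands placed outside the β-catenin route, *Wnt5a* and *Wnt11*, were not called between genotypes. *Wnt5a* measured 126 ± 7.79 CPM in wild type and 124 ± 18.1 in mutants at E10.0 (log2 fold −0.02, SE 0.112, adjusted p = 0.966) and 153 ± 6.52 against 167 ± 20.5 at E10.5 (0.13, SE 0.0971, adjusted p = 0.822). *Wnt11* measured 6.29 ± 0.774 and 6.46 ± 0.782 CPM at E10.0 and 5.73 ± 0.274 and 5.95 ± 0.650 CPM at E10.5. Embryos of both genotypes overlapped for both genes at both stages. The sign of the difference at E10.0 depended on the settings for both genes, since *Wnt5a* reached 0.08 and *Wnt11* −0.11 on the log2 scale without mutants 4 and 5.

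Among the 7 ligands known from the ectoderm, 6 had lower means in mutants at either stage, with *Wnt10b* the exception at both stages. At E10.0 their median log2 fold was −0.30 and at E10.5 it was −0.24, and that of all 10 ligands was −0.26 and −0.16, beside −0.02 and −0.01 over all genes tested. At E10.0 none of the 7 was called by the exact test, although *Wnt4* (p = 0.0498) and *Wnt7a* (p = 0.0129) had unadjusted p under 0.05, and neither the quasi-likelihood test nor DESeq2 called any of them there. At E10.5 *Wnt4* was called together with *Wnt5b*, which made 2 of the 10 ligands, beside 3.73% of all genes tested (462 genes, which became 282 without wild type 2). At this stage the genotypes did not overlap for 4 of the 10 ligands, *Wnt3*, *Wnt4*, *Wnt7a* and *Wnt5b*, beside 13.0% of all genes.

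*Wnt4*, an ectodermal ligand with later roles in joints and kidney, stood at 13.05, 11.6 and 10.96 CPM in the wild types 1, 2 and 3 at E10.5 and at 7.31, 10.01, 8.15 and 8.69 CPM in the mutants 1, 2, 4 and 5. All mutants were lower, and *Wnt4* fell by 0.47 on the log2 scale (SE 0.120, adjusted p = 0.0977). This value was close to the threshold. The call was lost under 5 of the 8 alternative settings without a replicate block. The adjusted p was 0.190 by the quasi-likelihood test, 0.103 with the RLE size factors of DESeq2, 0.1301 with no filter, 0.131 with a filter of 5 CPM and 0.218 without mutants 4 and 5, where the log2 fold was −0.45. It was also lost without each of 10 single libraries, with adjusted p from 0.104 to 0.458. Those were the mutants 1, 4 and 5 and all 3 wild types of E10.5, and the mutant 4 and all 3 wild types of E10.0, which enter through the shared dispersion. At E10.0 the values were 12.3, 14.8 and 12.4 CPM in wild types and 9.37, 14.2, 9.97 and 8.66 CPM in the mutants 1, 3, 4 and 5 (log2 fold −0.31, SE 0.180, adjusted p = 0.281). Mutant 3 was high, and without it *Wnt4* was called at E10.0 as well (−0.50, adjusted p = 0.0219).

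*Wnt7a*, the dorsalizing signal, measured 9.51, 10.3 and 10.9 CPM in the wild types 1, 2 and 3 at E10.5 and 5.19, 8.14, 7.92 and 8.17 CPM in the mutants 1, 2, 4 and 5. Every mutant was below every wild type, with a log2 fold of −0.48 (SE 0.168) that missed the threshold (adjusted p = 0.148). Without mutants 4 and 5 it passed, at −0.62 (adjusted p = 0.0459), and it also passed without mutant 5 of E10.0 alone (adjusted p = 0.0963). The fit without mutants 4 and 5 rested on 2 mutants of E10.5, 1 of them mutant 1, which lay far below the others. No other exact test without 1 library passed. Over the 14 such fits the log2 fold ranged from −0.54 to −0.34, with adjusted p up to 0.440. At E10.0 the wild types held 17.8, 23.5 and 16.7 CPM and the mutants 1, 3, 4 and 5 held 14.6, 17.7, 14.1 and 11.2 CPM, with mutant 3 above the lowest wild type (log2 fold −0.42, SE 0.203, adjusted p = 0.140). Leaving out mutant 3 gave −0.54 (adjusted p = 0.0498), leaving out mutant 1 of E10.5, which enters through the shared dispersion, gave an adjusted p of 0.0661, and leaving out mutants 4 and 5 gave −0.26 (adjusted p = 0.359).

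*Wnt3*, upstream of ridge *Fgf8*, measured 10.6, 9.02 and 9.19 CPM in the wild types 1, 2 and 3 at E10.5 and 5.97, 8.18, 7.76 and 6.77 CPM in the mutants 1, 2, 4 and 5. The genotypes did not overlap, but the log2 fold of −0.42 (SE 0.125) was not called by the exact test (adjusted p = 0.137). DESeq2 placed it under the threshold (adjusted p = 0.0876), as did the exact test without mutant 2 of E10.5 (adjusted p = 0.0830) or mutant 3 of E10.0 (adjusted p = 0.0937). It was called in no other fit without 1 library and under no other alternative setting. Over the 14 exact tests without 1 library the log2 fold ranged from −0.49 to −0.34, with adjusted p up to 0.571. At E10.0 *Wnt3* measured 9.20 ± 1.195 CPM in wild type and 7.91 ± 1.080 in mutants (−0.22, SE 0.145, adjusted p = 0.477). *Fgf8* itself, which marks the ridge, measured 17.2 ± 2.40 and 17.7 ± 1.76 CPM at E10.0 and 13.4 ± 1.67 and 14.1 ± 3.37 CPM at E10.5 in wild type and mutants.

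The remaining ectodermal ligands overlapped between genotypes at both stages. *Wnt6* measured 20.9 ± 3.79 CPM in wild type and 16.98 ± 4.37 in mutants at E10.0, and 13.1 ± 1.17 and 12.6 ± 3.08 CPM at E10.5. *Wnt7b* measured 11.01 ± 1.06 and 9.44 ± 1.39 CPM at E10.0, and 13.6 ± 1.51 and 11.5 ± 1.71 CPM at E10.5. These differences lay between −0.06 and −0.30 on the log2 scale, with adjusted p from 0.427 to 0.985. *Wnt10b*, a ridge ligand, was at 1.35 ± 0.310 CPM (wild type) and 1.72 ± 0.330 CPM (mutants) at E10.0 and at 2.21 ± 0.347 and 2.38 ± 0.762 CPM at E10.5.

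**Figure D3:**
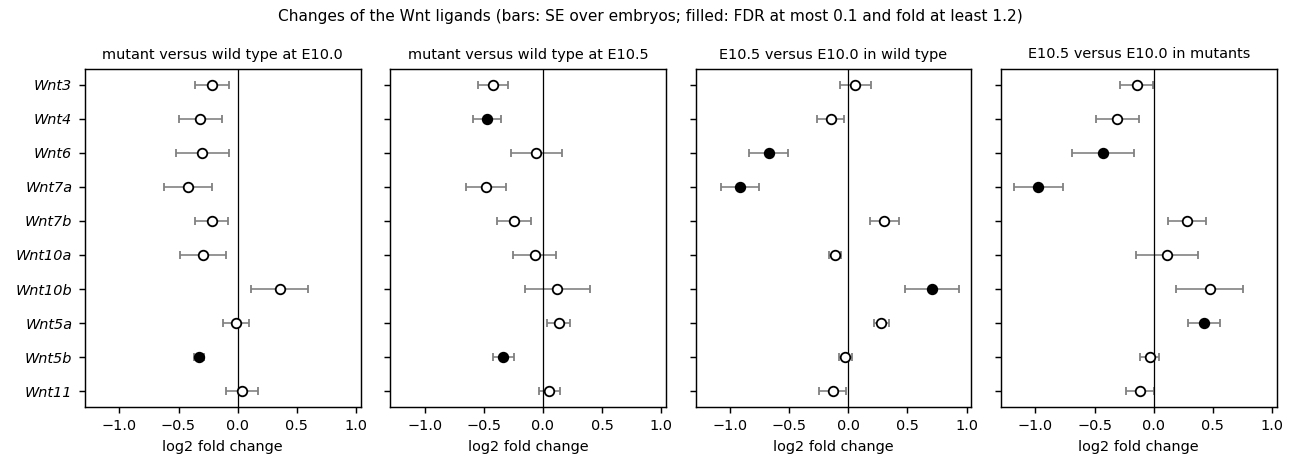
Log2 fold change of each Wnt ligand in the 4 comparisons (points) with its SE over embryos (bars), filled where the FDR was at most 0.1 and the fold at least 1.2. *Wnt5b* was called in both genotype comparisons and *Wnt4* at E10.5, and the largest changes were those of *Wnt7a* with stage, −0.92 in wild type and −0.98 in mutants.

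Markers of the surface ectoderm moved in the same direction as the ectodermal ligands. At E10.0, 13 of 13 markers had lower means in mutants (median log2 fold −0.21), and their summed level was 444 ± 48.3 CPM in wild type against 389 ± 61.6 CPM, with 392 to 487 and 311 to 448 CPM as the ranges. At E10.5, 11 of 13 had lower means (median −0.15), with sums of 366 to 383 CPM in wild type and 272 to 372 CPM in mutants. The sums of the genotypes overlapped at both stages, and markers of 1 tissue in the same libraries are not 13 independent observations. *Krt5*, a keratin of basal epithelium, was the only marker of the list called, at E10.0 (42.5 ± 3.27 against 32.3 ± 3.04 CPM, adjusted p = 0.0485), beside 6.61% of all genes. By the exact test 1 of 13 had an unadjusted p under 0.05 at E10.0, beside 2198 of 12393 genes. The quasi-likelihood test called none of the 13 there, with 1 at an unadjusted p under 0.05, while DESeq2 called *Krt5*. The part of these markers in the ligand differences was not tested, but each ligand can be set against their sum. Per 1000 CPM of ectoderm markers at E10.5, *Wnt4* stood at 28.6 to 34.1 CPM in wild types and 23.0 to 26.9 in mutants. On the same scale *Wnt7a* stood at 24.8 to 28.3 and 19.1 to 22.3, and *Wnt3* at 24.0 to 27.7 and 18.4 to 22.0. For these 3 ligands the genotypes did not overlap, whereas *Wnt6* (32.3 to 36.6 and 29.7 to 40.3) and *Wnt7b* (32.1 to 41.7 and 32.2 to 35.1) overlapped. *Wnt11* did not overlap either, but was higher in mutants (14.4 to 15.8 and 16.8 to 18.5). *Wnt5b* (49.7 to 55.6 and 38.7 to 52.9), *Wnt5a*, *Wnt10a* and *Wnt10b* overlapped. The share of all genes that did not overlap on this scale was not computed. At E10.0, *Wnt7a* overlapped narrowly on this scale, with 39.4 to 48.3 in wild types and 34.2 to 39.5 in mutants. *Wnt5b* is not an ectodermal marker, and the sum of the 6 mesenchyme markers was 1632 ± 121 CPM in wild type against 1478 ± 92.7 CPM in mutants at E10.0, and 1825 ± 77.4 and 1685 ± 89.0 CPM at E10.5. Of these 6 markers *Prrx1*, *Tbx5* and *Twist1* fell in mutants at E10.0, beside 6.61% of all genes called. *Prrx1* and *Twist1* also fell at E10.5, where *Pdgfra* rose, beside 3.73% of all genes called. The quasi-likelihood test called only *Twist1* of these at either stage, and *Prrx1* was not called at either stage without mutants 4 and 5. Their part in the difference of *Wnt5b* was not tested.

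**Figure D4:**
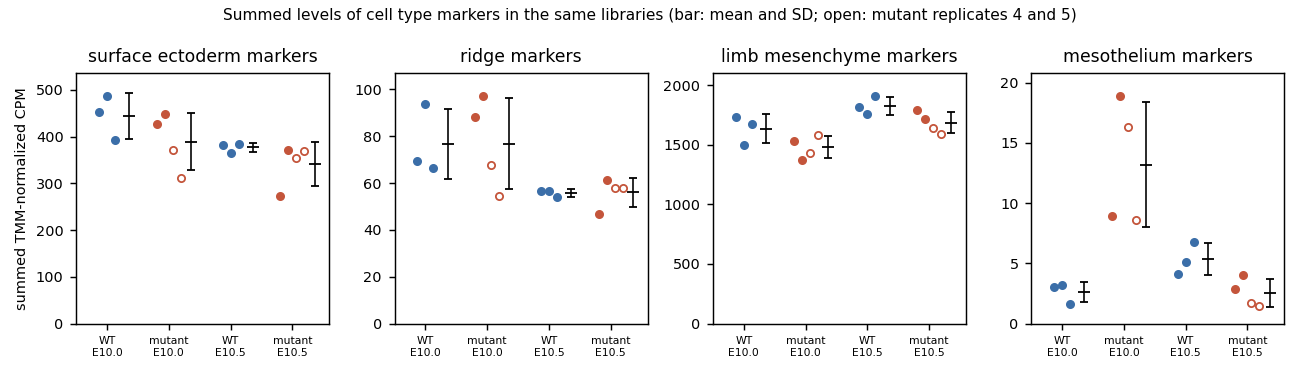
Summed TMM-normalized CPM of the markers of 4 cell types in every embryo (points), with the mean and SD of each group (bars) and mutant libraries 4 and 5 as open circles. Surface ectoderm sums were 392 to 487 CPM in wild types and 311 to 448 CPM in mutants at E10.0, and mesothelium sums were highest in mutants at E10.0.

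The promoters of the ligand genes called between genotypes are shown because SMAD complexes bind the letters CAGAC in DNA. Each line holds the 250 bases of mm9 before the most 5′ annotated start, read in the direction of the gene, with CAGAC and its reverse complement GTCTG in capitals.
*Wnt4* (chr4:136833154-136833403, + strand): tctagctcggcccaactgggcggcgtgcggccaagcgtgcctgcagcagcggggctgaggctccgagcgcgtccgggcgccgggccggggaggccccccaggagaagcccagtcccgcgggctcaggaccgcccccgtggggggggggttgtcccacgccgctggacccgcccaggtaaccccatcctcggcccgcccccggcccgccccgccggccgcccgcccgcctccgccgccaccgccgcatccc
*Wnt5b* (chr6:119494337-119494586, − strand): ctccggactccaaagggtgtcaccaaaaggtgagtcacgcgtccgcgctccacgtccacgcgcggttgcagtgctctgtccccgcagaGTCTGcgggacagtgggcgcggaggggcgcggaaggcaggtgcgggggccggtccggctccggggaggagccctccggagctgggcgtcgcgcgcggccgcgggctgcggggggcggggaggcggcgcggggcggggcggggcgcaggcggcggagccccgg
*Wnt5b* held 1 match and *Wnt4* none. Over the 10 ligands, 5 windows held at least 1 match, beside 40.9% of the windows of 22380 protein-coding genes. *Wnt10a*, which was not called in any comparison, held 3 matches, the most of the 10. Both windows shown were rich in G and C, at 81.2% for *Wnt4* and 78.8% for *Wnt5b*. A match is a description of these letters in this window only, and other letters that SMAD complexes may bind were not counted.

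Between E10.0 and E10.5, *Wnt7a* showed the largest change of the 10 ligands in both genotypes. It fell from 19.3 ± 3.66 to 10.2 ± 0.674 CPM in wild type, by 0.92 on the log2 scale (SE 0.161, adjusted p = 5.43e-05), and from 14.4 ± 2.67 to 7.36 ± 1.45 CPM in mutants, by 0.98 (SE 0.209, adjusted p = 1.37e-07). No embryo of E10.5 reached the lowest embryo of E10.0 of its genotype, and both calls held without any single library and without mutants 4 and 5. Per 1000 CPM of ectoderm markers *Wnt7a* went from 39.4 to 48.3 down to 24.8 to 28.3 CPM in wild types and from 34.2 to 39.5 down to 19.1 to 22.3 in mutants. Of the 13 markers, 2 were called lower with stage in wild type and 0 higher, beside 10.1% of all genes. In mutants 4 were called lower and 2 higher, beside 19.2%. The part of the ectoderm in the fall of *Wnt7a* was not tested. *Lmx1b*, the mesenchymal target of *Wnt7a*, fell as well, from 33.0 ± 1.79 to 20.1 ± 5.03 CPM in wild type (−0.72, SE 0.208, adjusted p = 0.0328) and from 32.8 ± 10.1 to 22.5 ± 5.94 CPM in mutants (−0.54, SE 0.304, adjusted p = 0.0412). The quasi-likelihood test did not call it in either genotype. *En1*, which represses *Wnt7a* in the ventral ectoderm, measured 6.79 ± 2.07 and 5.33 ± 0.173 CPM in wild type at the 2 stages and 5.94 ± 1.34 and 4.55 ± 0.921 CPM in mutants, and was not called. Between genotypes *Lmx1b* was not called, but without mutants 4 and 5 it was lower in mutants at E10.0 (log2 fold −0.44, adjusted p = 0.0603, against −0.01 with all samples).

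*Wnt6*, another ectodermal ligand, fell with stage in wild type. It measured 19.4, 25.3 and 18.1 CPM at E10.0 and 14.01, 11.8 and 13.6 CPM at E10.5, with no overlap (log2 fold −0.67, SE 0.164, adjusted p = 0.0258). The call was lost without wild type 2 of E10.0 (adjusted p = 0.281) or wild type 2 or 3 of E10.5 (adjusted p = 0.149 and 0.108). In mutants *Wnt6* measured 15.4, 23.4, 15.7 and 13.5 CPM in the embryos 1, 3, 4 and 5 at E10.0 and 8.09, 14.7, 14.3 and 13.5 CPM in the embryos 1, 2, 4 and 5 at E10.5. The stages overlapped, and although the exact test called a fall (−0.43, SE 0.265, adjusted p = 0.0868), it was lost in the fit with the replicate number as a block (−0.36, adjusted p = 0.223), by the quasi-likelihood test (adjusted p = 0.135), with no filter, at 5 CPM and with only the mutants fitted (adjusted p from 0.107 to 0.148), without mutant 3 of E10.0 (−0.24, adjusted p = 0.429) and without mutant 1 of E10.5 (−0.26, adjusted p = 0.299). It was further lost without mutant 5 of E10.5, wild type 1 of E10.0 or wild type 3 of E10.5 (adjusted p from 0.101 to 0.110), and without mutants 4 and 5 it was −0.76 (adjusted p = 0.0185). Per 1000 CPM of ectoderm markers *Wnt6* stood at 42.8 to 51.9 CPM at E10.0 and 32.3 to 36.6 at E10.5 in wild types, without overlap, and at 35.9 to 52.2 and 29.7 to 40.3 in mutants.

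*Wnt5a*, the ligand of the outgrowing distal mesenchyme, was higher at E10.5. In mutants it measured 151, 114, 122 and 111 CPM in the embryos 1, 3, 4 and 5 at E10.0 and 186, 182, 158 and 143 CPM in the embryos 1, 2, 4 and 5 at E10.5. It rose by 0.43 on the log2 scale (SE 0.134, adjusted p = 0.000496), although mutant 1 of E10.0 overlapped with the later stage. Without mutants 4 and 5 the change was 0.48 (adjusted p = 0.000702). In wild type it measured 135, 123.2 and 120 CPM at E10.0 and 145, 154 and 158 CPM at E10.5. All embryos of E10.5 were higher, by 0.28 (SE 0.0623), but the exact test over all samples did not call it (adjusted p = 0.138). It was called without mutants 4 and 5 (adjusted p = 0.0269), without mutant 1 of E10.0 (adjusted p = 0.0478) or mutant 5 of E10.5 (adjusted p = 0.0864) alone, at a filter of 5 CPM (adjusted p = 0.0945) and with only the wild types fitted (adjusted p = 0.00537). For *Wnt5b* the log2 folds with stage were −0.03 in both genotypes.

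*Wnt10b* rose in wild type, from 1.66, 1.04 and 1.34 CPM at E10.0 to 2.09, 1.94 and 2.60 CPM at E10.5 (0.71, SE 0.226, adjusted p = 0.0965), on 51 to 119 reads per embryo. It lost its call by the quasi-likelihood test (adjusted p = 0.139), with no filter (adjusted p = 0.125) and without each of 7 single libraries, the wild types 2 and 3 of E10.0, all 3 of E10.5 and the mutants 3 and 5 of E10.0, with adjusted p from 0.102 to 0.453. In mutants the values were 1.85, 1.94, 1.23 and 1.87 CPM and then 2.83, 3.16, 1.47 and 2.05 CPM (0.47, SE 0.286, adjusted p = 0.160). There mutants 4 and 5 were lower than mutants 1 and 2 at E10.5, and without them the rise was called (0.66, adjusted p = 0.0691), as it was without mutant 4 of E10.5 alone (0.64, adjusted p = 0.0295). *Wnt7b* was higher at E10.5 by 0.31 in wild type (adjusted p = 0.252) and by 0.28 in mutants (adjusted p = 0.151) without passing the threshold. It passed in wild type with only the wild types fitted (adjusted p = 0.0917), and in mutants without mutant 3 of E10.0 (adjusted p = 0.0964) or mutant 1 of E10.5 (adjusted p = 0.0363). *Wnt3*, *Wnt4*, *Wnt10a* and *Wnt11* were not called between stages in either genotype, although *Wnt4* was in mutants without mutant 5 of E10.0 (adjusted p = 0.0681) or mutant 2 of E10.5 (adjusted p = 0.0905).

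Counted over the family, 3 of 10 ligands were called between stages in wild type (*Wnt7a* and *Wnt6* down, *Wnt10b* up), beside 10.1% of all genes tested, and 3 of 10 in mutants (*Wnt7a* and *Wnt6* down, *Wnt5a* up), beside 19.2%. The 1256 genes behind the share in wild type became 484 and 835 without wild type 2 or 3 of E10.0, and 812 and 521 without wild type 2 or 3 of E10.5. The stages did not overlap for 6 of 10 ligands in wild type, beside 37.0% of all genes, and for 1 of 10 in mutants, beside 20.0%. The median log2 fold of the 10 was −0.07 in wild type and −0.08 in mutants, since changes in both directions were mixed. Whether the change with stage differed between genotypes was tested directly. The interaction of stage and genotype was called for 0 of 10 ligands by edgeR's quasi-likelihood test, beside 0.186% of all genes, and for 0 by DESeq2. By the quasi-likelihood test 0 of 10 had an unadjusted p under 0.05, beside 714 of 12393 genes. The estimates of the interaction ran from −0.23 (*Wnt10b*, SE 0.365) to 0.24 (*Wnt6*, SE 0.312). These errors leave room for differences of that size in the scarcer and more variable ligands.

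Of the 9 other Wnt ligand genes, which were not among the 10, 5 passed the filter. *Wnt9b*, *Wnt16* and *Wnt9a* rose with stage in both genotypes, beside 10.1% of all genes called in either direction in wild type and 19.2% in mutants. *Wnt9b*, the neighbor of *Wnt3*, went from 2.34 ± 0.203 to 5.28 ± 0.975 CPM in wild type (log2 fold 1.17, adjusted p = 1.26e-05) and from 2.62 ± 0.468 to 4.79 ± 1.13 CPM in mutants (0.88, adjusted p = 0.000113). *Wnt2* was called higher in mutants at E10.0 (2.59 ± 1.88 against 7.20 ± 2.59 CPM, adjusted p = 0.0982) and lower in mutants at E10.5 than at E10.0 (1.18 ± 1.23 CPM, adjusted p = 1.2e-05). Its embryos varied widely, and the mesothelium markers were high in the same group, with 8.58 to 18.9 CPM in mutants at E10.0 against 1.63 to 3.17 CPM in wild types. Their part was not tested. *Wnt2b* was also called higher in mutants at E10.0 (1.77 ± 0.252 against 2.91 ± 0.980 CPM, adjusted p = 0.0886). With *Wnt2*, 2 of these 5 genes were called between genotypes at E10.0, beside 6.61% of all genes. The quasi-likelihood test called neither *Wnt2* nor *Wnt2b* between genotypes.

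Several secreted modulators of the ligands changed between genotypes. Of 11 tested, 4 fell and 1 rose in mutants at E10.0, beside 6.61% of all genes called in either direction, and 3 fell at E10.5, beside 3.73%. *Dkk1*, an antagonist that binds the LRP co-receptors, fell from 15.96 ± 3.62 to 4.97 ± 1.44 CPM at E10.0 (log2 fold −1.68, SE 0.263, adjusted p = 2.27e-13) and from 14.4 ± 2.43 to 3.86 ± 0.690 CPM at E10.5 (−1.90, SE 0.193, adjusted p = 2e-16). *Rspo4*, one of the R-spondins, which raise Wnt receptor levels at the cell surface, fell from 83.7 ± 5.77 to 55.6 ± 10.8 CPM at E10.0 (−0.59, adjusted p = 0.00037) and from 57.3 ± 7.16 to 21.3 ± 1.17 CPM at E10.5 (−1.43, adjusted p = 9.01e-25). *Wif1*, which binds Wnt ligands directly, fell at E10.0 (−0.39, adjusted p = 0.041), and *Dkk2* fell at E10.5 (−0.45, adjusted p = 0.041). Without mutants 4 and 5 the log2 folds of *Dkk1* were −1.51 and −1.98, those of *Rspo4* −0.67 and −1.38, and *Wif1* kept its call, whereas *Dkk2* lost it. With stage, *Rspo1* and *Rspo3* rose and *Rspo4* fell in both genotypes, and *Wif1* rose in mutants (0.84, adjusted p = 1.47e-11). The rise of *Rspo3* in wild type (0.75, adjusted p = 0.0861) was not called by the quasi-likelihood test or DESeq2. *Sfrp1*, a secreted Frizzled-related protein named here after its values were seen, rose with stage in wild type, from 127 ± 16.9 to 165 ± 12.6 CPM (0.38, adjusted p = 0.0902), and fell in mutants, from 168 ± 29.1 to 127 ± 19.3 CPM (−0.40, adjusted p = 0.0106). It was the modulator called higher in mutants at E10.0 (0.40, adjusted p = 0.0655), and the quasi-likelihood test called neither that difference nor the rise in wild type. The interaction of stage and genotype for *Sfrp1* was −0.78 (SE 0.215), which was not called by the quasi-likelihood test (adjusted p = 0.295) and was called by DESeq2.

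Of 15 receptors tested, *Fzd10* alone was called in each of the 4 comparisons. This Frizzled receptor fell in mutants from 99.7 ± 2.30 to 78.8 ± 4.49 CPM at E10.0 (log2 fold −0.34, SE 0.0462, adjusted p = 0.00365) and from 74.7 ± 3.98 to 58.4 ± 4.10 CPM at E10.5 (−0.35, SE 0.0678, adjusted p = 0.00216), and fell with stage in both genotypes (−0.42 and −0.43). *Fzd5* rose in mutants at E10.0 (0.56, adjusted p = 0.0434). Of all genes, 6.61% and 3.73% were called between genotypes at E10.0 and E10.5, and 10.1% and 19.2% with stage in wild type and mutants. *Ror2*, the receptor through which *Wnt5a* acts on polarity, measured 69.1 ± 1.07 and 65.4 ± 14.5 CPM at E10.0 and 61.1 ± 9.37 and 65.4 ± 6.56 CPM at E10.5 in wild type and mutants. Of the genes that acylate, export or inactivate Wnt ligands, *Notum*, whose product removes the acyl group from the serine shown above, fell in mutants at E10.0 from 13.3 ± 1.87 to 9.28 ± 1.69 CPM (−0.52, SE 0.166, adjusted p = 0.0475). It also fell with stage in wild type, to 8.89 ± 0.370 CPM (−0.58, adjusted p = 0.0241). The difference at E10.0 was not called without mutants 4 and 5 (−0.42, adjusted p = 0.145). *Wls*, the escort of the ligands, was not called in any comparison, and *Porcn* lies on the X chromosome, which was left out of the tests.

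Of 11 intracellular transducers, *Apc*, part of the complex that degrades β-catenin, rose in mutants at E10.0 (0.37, adjusted p = 0.0134), beside 6.61% of all genes called. *Tcf7* and *Lef1*, nuclear partners of β-catenin, fell with stage in both genotypes, beside 10.1% of all genes called in wild type and 19.2% in mutants. Of 8 planar polarity partners, *Prickle1* rose in mutants at E10.5, from 31.5 ± 0.961 to 41.9 ± 1.99 CPM (0.41, adjusted p = 0.000626), beside 3.73% of all genes called. With stage *Prickle2* rose and *Celsr2* and *Scrib* fell in wild type, beside 10.1%. The quasi-likelihood test called only *Prickle2* of these, and DESeq2 did not call *Scrib*. Of 10 feedback and response genes of the β-catenin route, 0 were called between genotypes at either stage by the exact test. The quasi-likelihood test and DESeq2 called 0 as well. Of all genes, the exact test called 6.61% at the earlier stage and 3.73% at the later one. With shares this low, 0 of 10 does not set these genes apart from all genes. An unadjusted p under 0.05 by the exact test was found for 1 of the 10 at E10.0, beside 2198 of 12393 genes. For E10.5 the count was 2 of the 10, beside 1269 of 12393 genes. Without mutants 4 and 5, *Lef1* was called lower in mutants at E10.0 (−0.35, adjusted p = 0.0238) and at E10.5 (−0.44, adjusted p = 0.00865). *Axin2*, the usual readout of the route, measured 93.7 ± 1.80 and 88.0 ± 5.59 CPM at E10.0 and 82.0 ± 13.9 and 82.0 ± 6.88 CPM at E10.5 in wild type and mutants. With stage, 5 of these 10 were called in each genotype, beside 10.1% of all genes in wild type and 19.2% in mutants. *Tcf7* (−0.67 and −0.72) and *Lef1* (−0.60 and −0.74) fell, and *Nkd2* (0.45 and 0.60) and *Lgr5* (0.87 and 0.77) rose in wild type and in mutants.

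The genes whose levels ran most like each called ligand over the 14 samples were found by the root-mean-square difference of centred log2(CPM + 1). For *Wnt6* the first 2 were *Dlx3* (0.117), a homeobox gene, and *Gjb5* (0.125), a connexin, both known from ectoderm, beside 0.369 for a gene without any variation. For *Wnt7a* they were *Itga3*, *Ppp2r2c* and *Dok4* (0.156 to 0.173, beside 0.522). For *Wnt5b* they were *Mmp14*, a membrane metalloprotease, *Fam53b* and *Unc5b* (0.0633 to 0.0698, beside 0.177), for *Wnt5a* *Pfn2*, *Sft2d2* and *Gdpd1* (0.0724 to 0.0872, beside 0.227), and for *Wnt4* *Gpn2*, *Zfp593* and *Ece2* (0.0994 to 0.123, beside 0.274). For *Wnt10b* they were *Cd53* and *Tyrobp*, known from blood cells, and *Pkia* (0.107 to 0.134, beside 0.281). Of 4 macrophage markers, 2 passed the filter and both rose with stage, and the summed level of all 4 went from 1.68 to 3.76 up to 8.62 to 9.50 CPM in wild types. Their part in the level of *Wnt10b* was not tested. The samples share stage and genotype, which many genes follow.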

How the data were processed

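The authors aligned 50-base single reads to mm9 with TopHat 2.0.13, kept uniquely mapped reads and deposited raw counts per gene symbol from htseq-count, run without regard to strand. The counts of 14 samples were used as deposited, with no sample left out, and the 5 rows of unassigned reads were dropped. No 2 replicates of a group agreed within sampling noise (chi-square per degree of freedom at least 13.998). Tests followed the study's methods where these are stated: the 1041 symbols of the sex chromosomes and the mitochondrion were dropped. After that, 12393 genes passed the filter of 1 CPM in 3 samples. Whether the study fitted both stages together is not stated. The study reported fewer genes called between genotypes at each stage than were called here. Normalization was by TMM in edgeR 4.0.16, tag-wise dispersions were estimated over all samples (prior of 10 degrees of freedom), and 2 groups at a time were compared by the exact test. Calls needed a Benjamini-Hochberg FDR of at most 0.1 and a fold of at least 1.2. The interaction was tested by quasi-likelihood, which was also run for the pairs as an alternative, with DESeq2 1.42.0 (R 4.3.3). SE came from replicate variances of log2 CPM (prior count 2). Scripts were tested on simulated data.

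The members, gene lists and tests were chosen with earlier results of these data known. Named genes were the 10 ligands, *Smad4*, up to 3 called genes of lowest p per list and comparison, and the 3 genes most like each called ligand, of which 1 is not reported here. *Fgf8*, *Ror2*, *En1*, *Wls*, *Axin2*, *Prrx1*, *Tbx5*, *Twist1*, *Pdgfra* and *Krt5* were named besides, for their role, and *Sfrp1* after its values were seen. Sequences were read from NCBIM37 at GENCODE vM1 coordinates.

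Replicate numbers were checked for pairing by correlating deviations from group means across genes. Between stages in mutants the 3 shared numbers gave 0.497, 0.556 and 0.214, and the 13 pairs of unlike number ranged from −0.487 to 0.298. Pairs of mutant 4 or 5 with a mutant outside that library set were all negative. Pairs within a set were all positive. The blocked value is printed where it changed a call. In the other comparisons the values of shared numbers did not all exceed 0.1, and the numbers were not taken to pair samples. A block that holds a single library adds nothing to a difference. The blocked genotype differences thus rest on numbers 1 and 3 at E10.0 and on 1 and 2 at E10.5. Those of stage in mutants rest on numbers 1, 4 and 5.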

Additional observations from a re-analysis of the deposited data

Results flagged for a closer look

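Of 20 groups of 4 samples tested, 1 for each ligand and mutant group, 2 held an embryo far from the other 3 by Dixon's criterion, and chance gives about 1. *Wnt7a* was at 5.19 CPM in mutant 1 at E10.5, beside 7.92 to 8.17 CPM in the other mutants. The summed surface ectoderm markers of that embryo were 272 CPM, beside 355 to 372 CPM in the others. *Wnt10b* was at 1.23 CPM (45 reads) in mutant 4 at E10.0, beside 1.85 to 1.94 CPM, and that library held 1.80% of *Rn45s*. The cause of either was not tested.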

How the results depend on the processing

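The calls of *Wnt7a* with stage and of *Wnt5a* with stage in mutants held under every alternative tried and without any single library. Of the 10 ligands, 2 were called between genotypes at E10.5. The count was 1 by the quasi-likelihood test, with RLE size factors, with no filter, at 5 CPM and with the groups fitted apart, 0 with the replicate block and 3 by DESeq2. Between stages in wild type, 3 were called, 5 with the groups fitted apart, 4 with the block and without mutants 4 and 5, and 2 by the quasi-likelihood test and with no filter. Between stages in mutants, 3 were called, 4 without mutants 4 and 5, and 2 by the quasi-likelihood test, with no filter, at 5 CPM, with the groups fitted apart and with the block. Leaving out 1 library gave counts of 0 to 2 and 0 to 3 between genotypes at E10.0 and E10.5, 1 to 4 and 2 to 4 between stages in wild type and mutants, and 0 for the interaction.

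The count over all genes at E10.0, 819, was 1990 with the block and 2003 without mutants 4 and 5. Between stages in wild type it was 1256, and 1989 with the groups fitted apart and 1899 with the block. For the interaction it was 23, and 87 by DESeq2, 39 with no filter, 5 at 5 CPM, 0 with the block and 6 without mutants 4 and 5. Without 1 library at a time, these counts ranged from 256 to 1062 and 282 to 516 between genotypes at E10.0 and E10.5, from 484 to 1516 and 1902 to 2738 between stages in wild type and mutants, and from 7 to 35 for the interaction, where every library but mutant 1 and wild type 2 of E10.5 moved the count by over 1.5 times. The percentages of all genes printed beside the ligands rest on these counts.

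Signs turned only for differences that were not called. In log2 folds, *Wnt5a* at E10.0 became 0.0028 by DESeq2 and with RLE, 0.0052 with no filter, 0.0026 at 5 CPM, 0.050 with the block and 0.076 without mutants 4 and 5. With the block, *Wnt6* and *Wnt11* at E10.0 became 0.015 and −0.20, and the interactions of *Wnt5b*, *Wnt6*, *Wnt10a* and *Wnt10b* became 0.0066, −0.24, −0.25 and 0.23. Without mutants 4 and 5, *Wnt11* at E10.0 became −0.11, *Wnt5b* and *Wnt10a* with stage in mutants 0.011 and −0.36, and the interactions of *Wnt5b*, *Wnt6* and *Wnt10a* 0.035, −0.092 and −0.25. *Wnt5b* with stage in wild type became 0.0014 at 5 CPM. The cause was not tested. Without 1 library at a time, the log2 fold between genotypes ranged from −0.11 to 0.036 (*Wnt5a*) and −0.064 to 0.097 (*Wnt11*) at E10.0, and from −0.14 to 0.11 (*Wnt6*), −0.21 to 0.093 (*Wnt10a*) and −0.046 to 0.29 (*Wnt10b*) at E10.5. With stage it ranged from −0.042 to 0.13 (*Wnt3*) and −0.083 to 0.0040 (*Wnt5b*) in wild type, and from −0.086 to 0.0066 (*Wnt5b*) and −0.026 to 0.27 (*Wnt10a*) in mutants. The interaction ranged from −0.25 to 0.020 (*Wnt4*), −0.061 to 0.048 (*Wnt5b*), −0.23 to 0.080 (*Wnt7a*), −0.12 to 0.074 (*Wnt7b*) and −0.045 to 0.12 (*Wnt11*).

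The level of *Wnt5b* in wild type at E10.0 was 19.97 CPM with RLE. Of the 10 ranks per kb, 7 were the same with the longest transcript. Besides *Wnt6* with stage in mutants, the block changed the call of *Wnt4* (adjusted p = 0.199) and *Wnt5b* (adjusted p = 0.152) at E10.5 and of *Wnt5a* with stage in wild type (adjusted p = 0.0269), where the numbers were not taken to pair samples. The depth of 23 to 67 reads limits *Wnt10a*.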
